A study of Mus musculus with 12 samples.

Results

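Expression of 10 enzymes that protect kidney cells from oxidants was followed from podocyte loss into the weeks after it. The 10 genes are Hmox1, Nqo1, Srxn1, Txnrd1, Gsr, Gclc, Gclm, Gpx3, Cat and Sod3, taken by symbol as the named targets of the transcription factor NRF2 and the antioxidant enzymes of the kidney. They are 10 of the 56722 genes in the count table, and all 10 passed the filter on low counts, as 19821 genes did. RNA came from whole kidneys of Pod-TRECK mice, a line in which podocytes carry a receptor that makes them sensitive to diphtheria toxin, so every group, controls included, had the same genotype. The toxin groups had 100 ng of diphtheria toxin injected intraperitoneally and were collected at day 5, day 14 or day 21, and the control group had no toxin and no other treatment. Each of the 4 groups had 3 libraries, given as biological replicates, 12 in all under 1 batch label. No source used here names the promoter behind the receptor or the age, sex and strain background of the mice.

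Libraries held 31023852 to 46420299 counts. Nphs1, which encodes the slit protein nephrin, marks podocytes and checks the toxin: its highest level was 1.98 CPM (read counts scaled to a common library size) at day 5 and 0.613 CPM at day 14, against a lowest control level of 20.025 CPM. At day 21 its highest level was 16.5 CPM, and the other libraries of that day were at or below 0.517 CPM. Over a list of 7 podocyte markers the fall was smaller than for Nphs1. The list summed to 90.2 to 109 CPM in day-5 libraries and 130 to 138 CPM in day-14 libraries, against 296 to 314 CPM in control. Of these 7 genes, 6 were lower in the day-5 group and 5 in each later group (edgeR, adjusted p under 0.05). Day-21 replicate 2 stood apart from the other libraries of its group. The summed level of 14 proximal tubule markers was 31294 CPM in it, and 4542 and 5528 CPM in the other day-21 libraries. Its 7 podocyte markers summed to 234 CPM, whereas its group mates had 95.1 and 114 CPM and the controls 296 to 314 CPM. The day-21 changes of the members are therefore also given without that library. The share of counts from the mitochondrial genome was 22.9% ± 0.684 (SD, n = 3) in control, 19.1% ± 0.892 at day 5, 9.22% ± 0.238 at day 14 and 14.9% ± 5.42 at day 21.

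NRF2, encoded by Nfe2l2, is held low by the adaptor KEAP1, which hands it to a ubiquitin ligase for degradation. Oxidants and electrophiles modify KEAP1, NRF2 then collects in the nucleus, pairs with a small MAF protein and binds antioxidant response elements, while BACH1 competes for the same sites and represses Hmox1 in particular. In the kidney the proximal tubule is rich in mitochondria and peroxisomes and carries much of the antioxidant enzyme load. Gpx3, a secreted glutathione peroxidase, is made there and released to the blood.

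The DNA before a start site is shown for members whose window held a motif bound by NRF2 or AP-1 factors, and for Cat. RefSeq promoter windows (build GRCm38.p6, a different build from the count table) were found for 6 of the 10 members, as 8 windows of 250 bases before a start: Nqo1, Gclm, Txnrd1 with 3 starts, Srxn1, Gpx3 and Cat. Both strands were searched for TGACNNNGC, the core of the antioxidant response element, and for TGANTCA, the core of the AP-1 site. These motifs can overlap, and they were chosen with the expression values known. Windows of 3 members held a match: Srxn1 (chr2:152105274-152105523, plus strand), Txnrd1 at the second start listed (chr10:82858956-82859205, plus strand) and Gclm (chr3:122245307-122245556, plus strand). Cat (chr2:103485154-103485403, minus strand), the member that fell most, is shown beside them and held neither. Each is printed 5′ to 3′ on the gene's strand up to the base before the start, with the matched letters in capitals.

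Srxn1: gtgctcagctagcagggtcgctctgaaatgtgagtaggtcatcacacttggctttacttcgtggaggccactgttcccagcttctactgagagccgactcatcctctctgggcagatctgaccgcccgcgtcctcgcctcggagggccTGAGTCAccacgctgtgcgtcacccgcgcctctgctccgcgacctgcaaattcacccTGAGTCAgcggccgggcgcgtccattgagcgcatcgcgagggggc

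Txnrd1: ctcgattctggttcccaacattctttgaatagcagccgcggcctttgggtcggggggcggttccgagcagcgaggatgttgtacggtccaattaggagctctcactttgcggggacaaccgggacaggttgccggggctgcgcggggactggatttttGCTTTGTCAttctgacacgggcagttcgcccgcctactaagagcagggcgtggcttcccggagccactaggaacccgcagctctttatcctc

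Gclm: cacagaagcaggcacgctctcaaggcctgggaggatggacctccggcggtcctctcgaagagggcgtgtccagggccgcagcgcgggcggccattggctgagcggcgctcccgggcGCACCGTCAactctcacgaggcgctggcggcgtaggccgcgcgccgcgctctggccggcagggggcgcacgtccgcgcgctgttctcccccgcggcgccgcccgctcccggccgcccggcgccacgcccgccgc

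Cat: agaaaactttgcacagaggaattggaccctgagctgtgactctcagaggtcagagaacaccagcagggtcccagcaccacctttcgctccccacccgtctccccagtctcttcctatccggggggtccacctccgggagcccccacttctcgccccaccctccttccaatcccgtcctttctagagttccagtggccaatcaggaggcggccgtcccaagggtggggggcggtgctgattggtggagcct

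The Srxn1 window held TGAGTCA at 102 and at 45 bases before the start. The match at 45 bases is followed by gc, so it reads as TGACNNNGC with G in place of C, a form that was not searched for. The Txnrd1 window held TGACNNNGC on the opposite strand, read here as GCTTTGTCA, 92 bases before the start. The Gclm window held the same motif on the opposite strand, read as GCACCGTCA, 134 bases before the start. Of 32851 RefSeq windows of this length, 10.2% held TGACNNNGC and 6.75% held TGANTCA, so a match is common. A match describes letters and is not a measured binding site, and a window without one says nothing about sites elsewhere.

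At rest the members spanned a wide range of transcript levels. In control kidneys, per kilobase of the gene length given in the table, Gpx3 was highest at 9388 ± 375 CPM per kb (mean ± SD, n = 3). Cat, the peroxisomal catalase, followed at 333 ± 7.52 CPM per kb, and Sod3, the secreted superoxide dismutase, at 84.4 ± 1.41 CPM per kb. Gclc at 62.3 ± 12.9 and Gclm at 56.2 ± 3.74 CPM per kb overlapped each other. Nqo1 at 39.6 ± 1.95 and Gsr at 38.6 ± 3.32 CPM per kb overlapped as well. The lowest levels were those of Txnrd1 at 19.3 ± 0.769, Srxn1 at 18.7 ± 1.36 and Hmox1 at 14.2 ± 4.69 CPM per kb, where each overlapped its neighbour in this order. Further levels are CPM of the whole gene, with library sizes scaled by TMM (trimmed mean of M-values, which equalises the middle of the gene distribution), and they compare groups rather than genes.

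At day 5, 4 members were called higher and none lower in the fit of all 12 libraries. These were Hmox1, which opens the haem ring, and the thiol-recycling enzymes Srxn1, Txnrd1 and Gsr, with rises from 1.37-fold to 2.93-fold. The 4 members called are set against 14.9% of all genes tested (9.77% called higher and 5.09% called lower) at an adjusted p under 0.05 in edgeR's quasi-likelihood test. None was lower at an unadjusted p under 0.05 either, nor with DESeq2 or limma-voom at the adjusted threshold (0 in each). These fits also used all 12 libraries. When only the control and day-5 libraries were fitted in edgeR, 3 members were called lower. They were Cat, Sod3 and Gclm (adjusted p = 0.000753, 7e-04 and 0.0398). Without day-21 replicate 2, Cat and Sod3 were called lower too, 6 members in all, and without control replicate 1 or 3 or day-5 replicate 1 or 3 only 2 members were called. The median log2 change of the members was 0.12, against 0.00 over all genes. Proximal tubule markers summed to 35548 to 38366 CPM at day 5 and 48611 to 56161 CPM in control, with 0 of 14 called. Injury markers of the tubule, such as Havcr1, summed to 482 to 708 CPM at day 5 and 104 to 110 CPM in control, with 6 of 8 called higher. The part of these cell markers in the members' changes was not tested. In RNA from whole kidney, fewer cells of a type and less RNA per cell cannot be told apart.

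By day 14, 7 members had fallen below control and Srxn1 alone was called higher. Levels ran from 0.575 times control for Gsr down to 0.239 times for Cat, and the falls took in both subunits of the enzyme that starts glutathione synthesis, glutathione reductase, Nqo1 and all 3 of Gpx3, Cat and Sod3. At this time 60% of all genes tested were called (31.2% higher and 28.8% lower), and the members' median log2 change was -1.17 against 0.08 over all genes. The 14 proximal tubule markers all fell and summed to 4046 to 4365 CPM, while the 12 macrophage and monocyte markers all rose and summed to 963 to 997 CPM, against 86.8 to 115 CPM in control. Erythroid markers summed to 16.7 to 146 CPM, against 833 to 1596 CPM in control. No defining marker of these 3 lists was at 0 in a whole group. Their part in the fall of the members was not tested.

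At day 21, 7 members differed from control, with Hmox1 and Srxn1 higher and Gclc, Gclm, Gpx3, Cat and Sod3 lower. Of all genes 42.8% were called (24.3% higher and 18.5% lower), and the members' median log2 change was -0.46 against 0.07 over all genes. Without replicate 2 of that day, 8 members differed, Gsr joining those below control, and without replicate 1 or replicate 3 of that day 4 did. When only the control and day-21 libraries were fitted, 1 member was called, Srxn1. Proximal tubule markers, with 9 of 14 lower, summed to 4542 to 31294 CPM, and macrophage and monocyte markers, with 11 of 12 higher, to 274 to 562 CPM. Their part was not tested here either. In a joint test of the 3 days every one of the 10 members differed from control in at least 1 group, as did 66.1% of all genes.

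**Figure D1:**
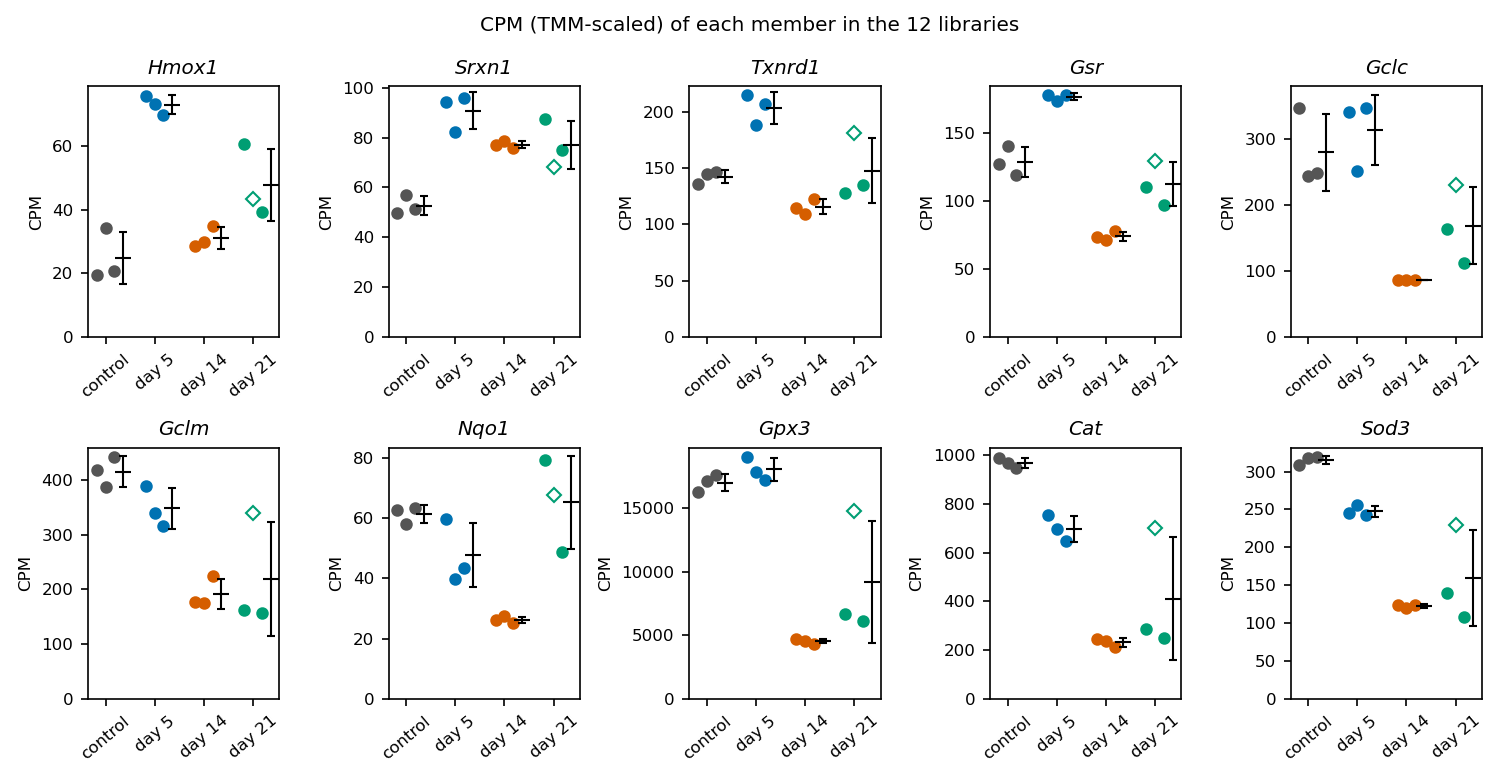
TMM-scaled CPM (vertical axis, from 0) of each member in the 12 libraries by group, with the mean and SD of each group as bars and day-21 replicate 2 as an open diamond. Hmox1 and Srxn1 stood above every control library at day 5, Gpx3, Cat and Sod3 were lowest at day 14 or in 1 day-21 library, and the open diamond lay above the other day-21 libraries for 7 of the 10 members.

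Hmox1 encodes haem oxygenase-1, which breaks haem down to biliverdin, iron and carbon monoxide. Its gene lies at 75820249 to 75827217 on the plus strand of chromosome 8 (GRCm39). Control libraries gave 19.4, 34.3 and 20.9 CPM, and day-5 libraries gave 75.8, 73.1 and 69.8 CPM. All day-5 libraries were above all controls, and the rise of 1.55 ± 0.22 (log2, SE) or 2.93-fold was the largest among the members (adjusted p = 0.000887). By day 14 the libraries gave 28.6, 29.9 and 34.9 CPM and overlapped control replicate 2 alone. The change then was 0.32 ± 0.21 (adjusted p = 0.212). It passed the test at 0.58 without control replicate 2, at adjusted p = 0.0158, in a range of 0.0019 to 0.637 over 22 alternative settings. At day 21 the values were 60.7, 43.4 and 39.2 CPM, again all above the controls, for a rise of 0.94 ± 0.21 (adjusted p = 0.00767) or 1.00 without replicate 2. That call was lost in the fit of only these 2 groups (0.95, adjusted p = 0.0645), the highest of a range from 0.000577. Hmox1 had the fewest counts of any member, 656 in its lowest library.

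Nqo1 encodes NAD(P)H quinone oxidoreductase, a classical NRF2 target that reduces quinones, and lies at 108114857 to 108129838 on the minus strand of chromosome 8. Control libraries gave 62.8, 58.0 and 63.6 CPM. Day-5 libraries gave 59.8, 39.8 and 43.5 CPM, with replicate 1 inside the control range and the others below it. The change of -0.37 ± 0.18 did not pass (adjusted p = 0.198). Day-14 libraries were tight at 26.2, 27.4 and 25.2 CPM, all below control, and the gene fell by 1.23 ± 0.18 (log2, SE; adjusted p = 0.00024). Day-21 libraries spread from 48.8 through 67.9 to 79.4 CPM, on both sides of the controls, and the change of 0.09 ± 0.18 did not pass (adjusted p = 0.7), nor did 0.05 without replicate 2 (adjusted p = 0.824). At day 5 Hmox1 was thus at 2.93 times control and Nqo1 at 0.776 times control, and the difference between these changes was not tested.

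Srxn1, Txnrd1 and Gsr keep protein and glutathione thiols reduced. Sulfiredoxin, from Srxn1 (chromosome 2, 151947436 to 151953296, plus strand), repairs overoxidised peroxiredoxins. Its control libraries gave 49.8, 57.0 and 51.3 CPM, day 5 gave 94.2, 82.1 and 95.8, day 14 gave 76.8, 78.5 and 75.9, and day 21 gave 87.5, 68.4 and 75.1 CPM. All 9 toxin libraries were above all 3 controls. Srxn1 rose by 0.78 ± 0.10 at day 5 (log2, SE; adjusted p = 0.000635), 0.55 ± 0.10 at day 14 (adjusted p = 0.00103) and 0.55 ± 0.10 at day 21 (adjusted p = 0.00346), or 0.62 at day 21 without replicate 2. With TMM it was the only member called higher on all 3 days, and its own calls held in each of the 22 alternative settings. With library totals Hmox1 and Txnrd1 were called higher on all 3 days as well. An unnamed gene on the other strand overlaps it and held 2029 counts, 5.92% of those of Srxn1, and no source used here gives the strand setting of the counting.

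Txnrd1 encodes the cytosolic thioredoxin reductase (chromosome 10, 82669785 to 82733546, plus strand). Control libraries gave 136, 145 and 146 CPM, and day-5 libraries gave 215, 188 and 207 CPM, all higher. The rise was 0.52 ± 0.13 (log2, SE; adjusted p = 0.0214). Day-14 libraries at 115, 110 and 123 CPM were all below control, though the change of -0.30 ± 0.13 did not pass (adjusted p = 0.0636). That value passed without day-21 replicate 2, at -0.31 ± 0.07 (adjusted p = 0.00199, in a range of 0.00123 to 0.17 over the alternatives), and its sign turned with scaling to library totals. Day-21 libraries gave 128, 181 and 135 CPM, with replicate 2 above every control and the others below, and the change was 0.05 ± 0.13 (adjusted p = 0.746), or -0.12 without replicate 2.

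Gsr encodes glutathione reductase, which returns oxidised glutathione to its reduced form (chromosome 8, 34142551 to 34188191, plus strand). Control libraries gave 128, 141 and 119 CPM. Day-5 libraries were close together at 179, 174 and 178 CPM, all above control, a rise of 0.45 ± 0.11 (log2, SE; adjusted p = 0.0186). Day-14 libraries at 73.7, 71.3 and 78.0 CPM were all below control, and Gsr fell by 0.80 ± 0.11 (adjusted p = 0.00018). At day 21 the libraries gave 110, 130 and 97.6 CPM and overlapped control, with a change of -0.20 ± 0.11 (adjusted p = 0.157) that became -0.32 ± 0.08 without replicate 2 (adjusted p = 0.00516, the lowest over the alternatives, which reached 0.44). The day-5 calls of Gsr and Txnrd1 were the least firm. Gsr lost its call without control replicate 1 or 3 or any 1 of the day-5 libraries (log2 change 0.35 to 0.47, highest adjusted p 0.141). Txnrd1 lost its call without any 1 control or without day-5 replicate 1 or 3 (0.44 to 0.49, highest adjusted p 0.127). Over all alternatives the lowest adjusted p was 0.00062 for Gsr and 0.000173 for Txnrd1.

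Gclc and Gclm encode the catalytic and the modifier subunit of glutamate-cysteine ligase, the rate-limiting enzyme of glutathione synthesis. For Gclc (chromosome 9, 77661817 to 77701767, plus strand) control libraries gave 347, 244 and 249 CPM and day-5 libraries 340, 252 and 347 CPM. The groups overlapped and the change of 0.16 ± 0.24 did not pass (adjusted p = 0.699). Day-14 libraries gave 86.2, 86.0 and 86.3 CPM, far below every control, and Gclc fell by 1.70 ± 0.24 (log2, SE; adjusted p = 0.000212). Day-21 libraries at 164, 230 and 113 CPM lay between the day-14 libraries and the controls. The fall there was 0.73 ± 0.24 (adjusted p = 0.0306), and the log2 change was -1.02 without replicate 2. It lost its call without control replicate 1 (-0.58), day-21 replicate 1 (-0.71) or day-21 replicate 3 (-0.51), and the adjusted p ran from 0.000713 to 0.166 over the alternatives.

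Gclm (chromosome 3, 122039206 to 122064381, plus strand) gave 418, 386 and 441 CPM in control and 389, 339 and 316 CPM at day 5. Replicate 1 of day 5 lay inside the control range, and the change of -0.25 ± 0.26 did not pass (adjusted p = 0.562). It passed in a fit of only these 2 groups (-0.26, adjusted p = 0.0398, the lowest of a range up to 0.76). Day-14 libraries gave 176, 175 and 224 CPM, all below control, for a fall of 1.12 ± 0.26 (log2, SE; adjusted p = 0.00379). Day-21 libraries gave 163, 340 and 156 CPM, all below control, with replicate 2 nearest to the lowest control and the others below every day-14 library. The fall was 0.92 ± 0.26 (adjusted p = 0.0186), and the log2 change was -1.39 without replicate 2. It lost its call without control replicate 3 (-0.91), day-21 replicate 1 (-0.74) or day-21 replicate 3 (-0.73), with adjusted p from 1.67e-06 to 0.097 over the alternatives. Gm6061, on the same strand and overlapping Gclm, held 24188 counts, 18.9% of those of Gclm, so reads may be split between them.

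Gpx3, Cat and Sod3 remove peroxide and superoxide. Gpx3 (chromosome 11, 54793279 to 54801203, plus strand) gave 16283, 17158 and 17620 CPM in control and 19041, 17874 and 17243 CPM at day 5. These overlapped, with a change of 0.08 ± 0.31 (adjusted p = 0.889). Day-14 libraries gave 4669, 4580 and 4324 CPM, all below control, a fall of 1.91 ± 0.32 (log2, SE; adjusted p = 0.000508) to 0.266 times control. Day-21 replicates 1 and 3 gave 6661 and 6132 CPM and replicate 2 gave 14752 CPM, still below every control. The fall of 0.89 ± 0.31 passed narrowly (adjusted p = 0.0392). It lost its call in 12 of 22 alternatives, among them the omission of any library but day-21 replicate 2 (log2 change -0.95 to -0.67), and with that library left out it was -1.42 (adjusted p = 2.73e-08, the lowest of a range up to 0.226).

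Cat (chromosome 2, 103284194 to 103315505, minus strand) gave 990, 968 and 946 CPM in control and 752, 695 and 646 CPM at day 5. All day-5 libraries were below all controls, but the change of -0.47 ± 0.31 did not pass in the fit of 12 libraries (adjusted p = 0.356). Without day-21 replicate 2 the same change had an SE of 0.08 and passed (adjusted p = 0.000976, in a range of 0.000753 to 0.56 over the alternatives). Day-14 libraries gave 244, 238 and 211 CPM, all far below control, and Cat fell by 2.07 ± 0.32 (adjusted p = 0.000364), the largest fall of the members. Day-21 libraries gave 285, 700 and 248 CPM, with replicate 2 at the day-5 level. The others were nearer to the day-14 libraries but above all of them. The fall was 1.24 ± 0.32 (adjusted p = 0.0123), and the log2 change was -1.87 without replicate 2. The call was lost in the fit of only these 2 groups (-1.23, adjusted p = 0.0879), the highest of a range from 2.09e-08.

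Sod3 (chromosome 5, 52521133 to 52528760, plus strand) gave 309, 318 and 319 CPM in control and 245, 255 and 242 CPM at day 5. As for Cat, the day-5 libraries were all lower and the change of -0.35 ± 0.21 did not pass (adjusted p = 0.304), while without day-21 replicate 2 it had an SE of 0.08 and passed (adjusted p = 0.00628, in a range of 7e-04 to 0.477). Day-14 libraries gave 123, 119 and 124 CPM, all below control, a fall of 1.37 ± 0.21 (adjusted p = 0.000351). Day-21 libraries gave 140, 230 and 109 CPM, also all below control. The fall was 0.98 ± 0.21 (adjusted p = 0.00613), and the log2 change was -1.35 without replicate 2. It too lost its call in the fit of only these 2 groups (adjusted p = 0.0674, the highest of a range from 2.27e-07).

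**Figure D2:**
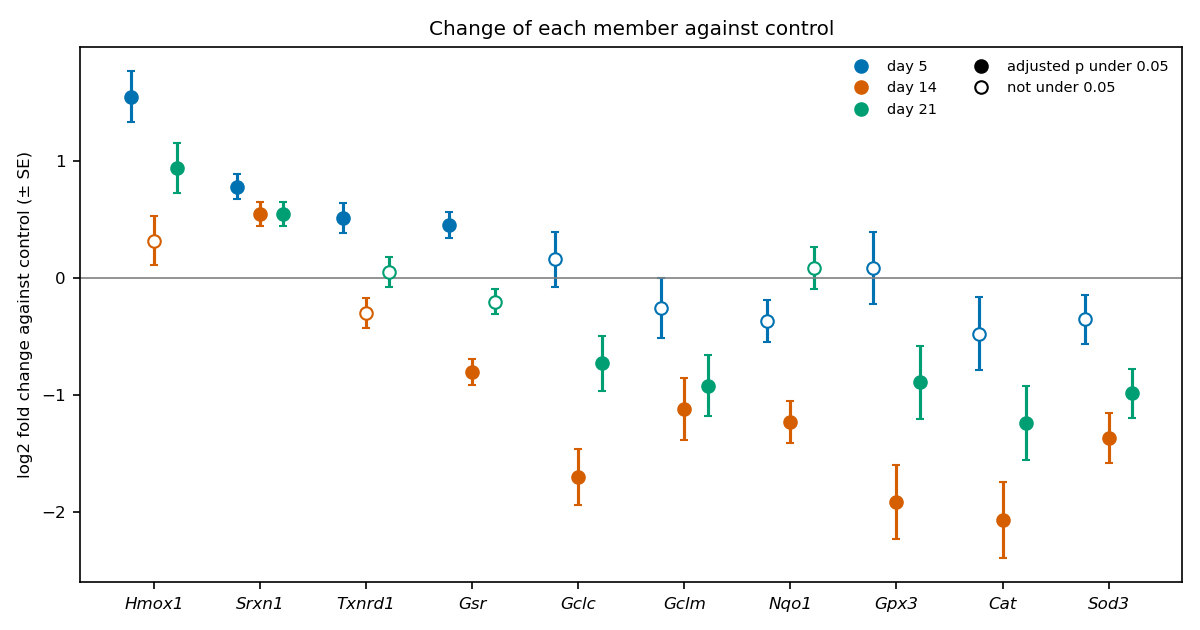
Log2 fold change of each member against control (vertical axis) at day 5, day 14 and day 21, with bars of 1 SE and filled points where the adjusted p was under 0.05. Srxn1 was filled above 0 on all 3 days, Hmox1 on day 5 and day 21, and 7 members were filled below 0 at day 14.

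Members were also counted by whether the TMM-scaled libraries of a group overlapped control. At day 5, 4 members had all libraries above control and 2 had all below, against 25.2% and 23.7% of all genes. At day 14, 1 was above and 8 were below, against 38.6% and 34.3% of all genes, with Txnrd1 as the member below that did not pass the test. At day 21, 2 were above and 5 below, against 24.3% and 20.9% of all genes. These counts depended on the scaling. With library totals Gpx3 also lay above all controls at day 5. At day 14 Hmox1 and Txnrd1 (144 to 161 CPM, against 108 to 117 CPM) then lay above all controls, and Gsr overlapped them. At day 21 Nqo1, Gsr and Txnrd1 joined those above, and Gclc, Gclm and Gpx3 overlapped control. The share of all genes was not counted with that scaling, so these counts of members cannot be set against it. The median log2 change of all genes then moved up by 0.14 at day 5, 0.73 at day 14 and 0.48 at day 21.

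Between day 5 and day 14, 9 of the 10 members fell, where 50.9% of all genes were called (24.7% higher and 26.1% lower). With TMM, all 10 members had their 3 day-14 libraries below their 3 day-5 libraries, as did 35.5% of all genes, while 35.4% had them all above. With library totals the day-14 libraries of Srxn1 were all above day 5 (99.8 to 103 CPM, against 72.1 to 85.5 CPM). Those of Nqo1 and Gclm then overlapped day 5. Gpx3 fell most, by 2.00 ± 0.32 (log2, SE; adjusted p = 0.000795), then Gclc by 1.86 ± 0.24 (adjusted p = 0.000286) and Cat by 1.59 ± 0.32 (adjusted p = 0.00245). Gsr and Hmox1, both higher than control at day 5, fell by 1.25 ± 0.11 (adjusted p = 3.74e-05) and 1.23 ± 0.21 (adjusted p = 0.00121). Srxn1 was the exception, at -0.24 ± 0.10 (adjusted p = 0.0769). It passed without day-5 replicate 2 (-0.31), day-21 replicate 1 (-0.24) or day-21 replicate 2 (-0.24), and with scaling to library totals its sign turned (0.35). The call of Gclm, -0.86 ± 0.26 (adjusted p = 0.0182), was lost without day-5 replicate 1 (-0.78), day-14 replicate 1 (-0.81) or day-14 replicate 2 (-0.81). With library totals 7 members were called lower, and the falls were smaller. Gclm (-0.28, adjusted p = 0.183, the highest of a range from 2.37e-05) and Nqo1 (-0.27, adjusted p = 0.195, the highest of a range from 5.09e-05) were then not called, and Txnrd1 moved from -0.81 to -0.23 and kept its call.

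From day 14 to day 21, 3 members rose and none fell (0 at an unadjusted p under 0.05 and 0 with DESeq2 or limma-voom), where 14.6% of all genes were called (7.03% higher and 7.57% lower). Nqo1 rose by 1.32 ± 0.18 (log2, SE; adjusted p = 0.00202), Gclc by 0.97 ± 0.24 (adjusted p = 0.0237) and Gsr by 0.60 ± 0.11 (adjusted p = 0.00763). Gclc lost its call without any 1 day-14 library (0.97 in each case, highest adjusted p 0.0862). With TMM, for 7 members all day-21 libraries were above all day-14 libraries and for 0 they were below, against 14.8% and 17.7% of all genes. Hmox1, Txnrd1 and Cat, which are among the 7, overlapped day 14 with library totals. Gpx3, at 1.02 ± 0.31, lay at an adjusted p of 0.05 and was not counted. Without day-21 replicate 2, 5 members were called, as Gpx3 (0.50) and Hmox1 (0.68) joined. Without day-21 replicate 1 the count was 6, and without replicate 3 it was 7. Cat gave 0.83 ± 0.31 with all libraries and 0.21 ± 0.09 without replicate 2, and did not pass either time (adjusted p = 0.0956 and 0.121).

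From day 5 to day 21, 5 members fell and none rose (1 at an unadjusted p under 0.05 and 0 with DESeq2 or limma-voom), where 26.9% of all genes were called (15% higher and 11.8% lower). Gpx3 fell by 0.98 ± 0.31 (log2, SE; adjusted p = 0.0405), Gclc by 0.89 ± 0.24 (adjusted p = 0.0219), Gsr by 0.65 ± 0.11 (adjusted p = 0.00346), Sod3 by 0.63 ± 0.21 (adjusted p = 0.0464) and Txnrd1 by 0.46 ± 0.13 (adjusted p = 0.0258). Nqo1 gave 0.45 ± 0.18 (adjusted p = 0.075) and was called higher in 5 alternatives: library totals (0.79), totals without mitochondrial genes (0.71), upper-quartile factors (0.54), and without day-5 replicate 1 (0.64) or day-21 replicate 3 (0.62). Its adjusted p ran from 0.0114 to 0.264 over the alternatives. With library totals 4 members were lower and 1 higher, as Txnrd1 (-0.15, adjusted p = 0.186) lost its call. With TMM, for 6 members all day-21 libraries were below all day-5 libraries and for 0 they were above, against 18% of all genes each way. Of the 6, Hmox1 and Txnrd1 overlapped day 5 with library totals. Nqo1 then lay all above day 5 (60.3 to 94.4 CPM, against 34.9 to 51.3 CPM). Only the call of Gsr held under every omission of 1 library. The count ran from 1 without day-5 replicate 3 to 7 without day-21 replicate 2, and was 2 without day-5 replicate 1 or day-21 replicate 3. It was 3 in every other omission of a library apart from control replicate 2.

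Library scaling sets the zero line of these changes, since a CPM is a share of its library. TMM factors averaged 0.793 in control, 0.876 at day 5, 1.31 at day 14 and 1.11 at day 21. When library totals alone were used, the median log2 change of all genes moved up by 0.14 at day 5, 0.73 at day 14 and 0.48 at day 21. Calls over all genes were then 77.7%, 85.6% and 88.3% higher at the 3 days, against 65.7%, 52.1% and 56.8% with TMM, and totals without mitochondrial genes gave 71.1%, 79.0% and 83.1%. The day-5 result did not move: the same 4 members were higher and none lower under all 4 other scalings.

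At day 14 the split of the members moved with the scaling. With library totals 3 were higher and 5 lower, in place of 1 and 7. Of the 19821 genes tested, 13154 were called higher and 2212 lower with that scaling. Hmox1 was called at 1.06 ± 0.24 (log2, SE; adjusted p = 0.0019), Txnrd1 turned from -0.30 to 0.43 ± 0.09 (adjusted p = 0.00132), and Srxn1 reached 1.28 ± 0.16. Nqo1 (-0.50), Gclc (-0.97), Gpx3 (-1.18), Cat (-1.34) and Sod3 (-0.64) stayed called lower. Gclm (-0.39 ± 0.18, adjusted p = 0.0632) and Gsr (-0.07 ± 0.09, adjusted p = 0.496) were no longer called. Relative to the moved median of all genes, 0.80, every member but Hmox1 and Srxn1 was still below it.

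At day 21 library totals gave 5 members higher and 4 lower, in place of 2 and 5. Of the 19821 genes tested, 11047 were called higher and 1464 lower with that scaling. Nqo1 (0.56), Gsr (0.26) and Txnrd1 (0.50) joined Hmox1 (1.44) and Srxn1 (1.04) above control, Gsr with a changed sign. Gclm (-0.52), Gpx3 (-0.50), Cat (-0.86) and Sod3 (-0.57) stayed lower, and Gclc (-0.30) was no longer called. Median-of-ratios and upper-quartile factors kept the counts of 2 higher and 5 lower at day 21.

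**Figure D3:**
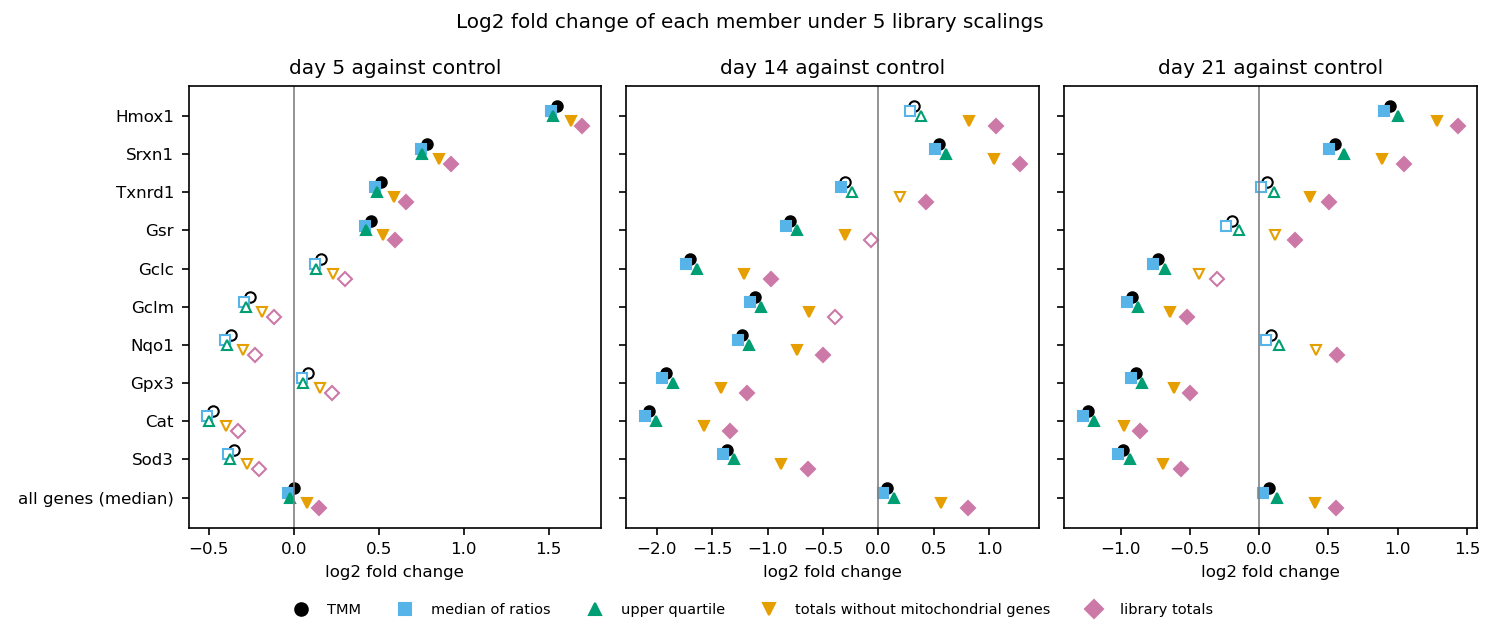
Log2 fold change of each member and the median over all genes (horizontal axis) under TMM and 4 other scalings, for day 5, day 14 and day 21 against control. Filled symbols have an adjusted p under 0.05 and the row for all genes has no test. Symbols of library totals lay to the right at day 14 and day 21, where Srxn1 was positive and Gpx3, Cat and Sod3 negative under all 5 scalings.

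Ratios of 2 members within a library do not depend on its scaling factor. For 7 pairs the ratio was compared with control at each of the 3 days, 21 exact two-sided permutation tests in all, and with 3 libraries against 3 no p can go below 0.1 (adjusted p = 0.14). The ratio of Hmox1 to Cat was above all controls at every day, by 2.07 (log2) at day 5, 2.43 at day 14 and 2.36 at day 21. The ratio of Srxn1 to Gsr was also above all controls each time, by 0.33, 1.35 and 0.75. Without day-21 replicate 2 the day-21 values were 2.88 and 0.94. The ratio of Gpx3 to Cat was above all controls by 0.56, 0.16 and 0.39.

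Other pairs changed less evenly. Txnrd1 to Gsr moved by 0.06 at day 5, was above all controls by 0.49 at day 14, and overlapped them at day 21 (0.24). Nqo1 to Cat overlapped control at day 5 (0.09) and was above it by 0.84 at day 14 and 1.46 at day 21, or 1.88 without day-21 replicate 2. Sod3 to Gpx3 was below all controls by 0.43 at day 5 and above them all by 0.54 at day 14, and overlapped them at day 21. The ratio of the 2 subunits of glutamate-cysteine ligase, Gclc to Gclm, differed from control by 0.42 at day 5 with overlapping groups (exact permutation p = 0.2). At day 14 all libraries were below control, by 0.55, and at day 21 the groups overlapped again, at 0.25 (exact permutation p = 0.4).

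**Figure D4:**
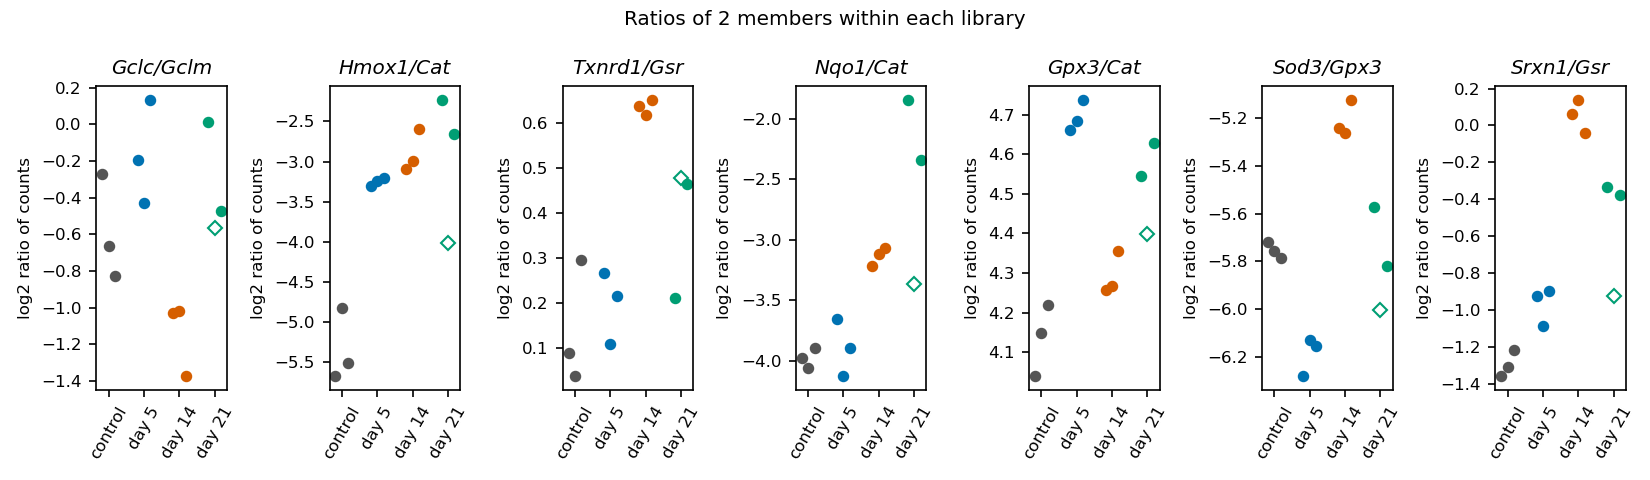
Log2 ratio of the counts of 2 members (vertical axis) in each of the 12 libraries by group, for 7 pairs, with day-21 replicate 2 as an open diamond. Hmox1/Cat and Srxn1/Gsr were above every control library on all 3 days, and for both pairs replicate 2 was the day-21 library nearest to the controls.

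Among the regulators of the pathway, Maff was called higher on all 3 days, Nfe2l2 on the later days and Keap1 on none. Nfe2l2, which encodes NRF2, gave 86.4, 91.5 and 89.2 CPM in control and 112, 101 and 101 CPM at day 5. Day-14 libraries gave 138, 141 and 128 CPM, and day-21 libraries 134, 98.2 and 146 CPM, so every toxin library was above every control. The change at day 5 was 0.24 ± 0.13 (log2, SE; adjusted p = 0.262, or 0.0176 without day-21 replicate 2), and the rise was 0.61 ± 0.13 at day 14 (adjusted p = 0.00214) and 0.50 ± 0.13 at day 21 (adjusted p = 0.0129). Keap1 was not called at any day, with changes of 0.05 ± 0.07, -0.10 ± 0.07 and 0.09 ± 0.07. With library totals Keap1 was called higher at day 14 (0.63) and day 21 (0.58). Bach1 was called at day 14, at 0.30 ± 0.08 (adjusted p = 0.00896), and not at day 5 (0.02 ± 0.08) or day 21 (0.06 ± 0.08).

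Maff, a small MAF protein that can pair with NRF2, changed most in that list. It gave 1.10, 1.69 and 1.45 CPM in control, 16.8, 19.2 and 17.8 CPM at day 5, 14.5, 14.4 and 16.1 CPM at day 14, and 7.65, 3.98 and 12.6 CPM at day 21. All toxin libraries were above all controls, and day-21 replicate 2 came nearest to them, at 3.98 CPM. The rises of Maff were 3.67 ± 0.35, 3.41 ± 0.35 and 2.52 ± 0.34 (adjusted p = 0.000103, 3.4e-05 and 0.000848). Sqstm1, the autophagy receptor p62 that can sequester KEAP1, rose by 0.63 ± 0.14 at day 5 (adjusted p = 0.0118). Cul3, the ligase scaffold that works with KEAP1, fell by 0.70 ± 0.13 at day 14 (adjusted p = 0.00113), a fall that was absent with library totals (0.03). In this list of 10 genes, 3 were higher and 0 lower at day 5, against 9.77% and 5.09% of all genes. At day 14 the counts were 3 and 2, against 31.2% and 28.8%, and at day 21 2 and 1, against 24.3% and 18.5%. With library totals 9 were higher and 0 lower at day 14, and 8 and 0 at day 21. Of the 19821 genes tested, that scaling called 13154 higher and 2212 lower at day 14, and 11047 and 1464 at day 21.

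Of 69 other genes of these pathways, 66 were tested. At day 5, 8 were higher and 0 lower in edgeR, with 2 lower at an unadjusted p under 0.05, 3 lower with DESeq2 and 0 with limma-voom. At day 14, 15 were higher and 37 lower, and at day 21, 12 were higher and 28 lower. Of all genes 9.77% were called higher and 5.09% lower at day 5, and 31.2% and 28.8% at day 14. At day 21 the shares were 24.3% and 18.5%, and these shares also stand beside the counts of each list below. Their median log2 changes were -0.09, -0.52 and -0.24, against 0.00, 0.08 and 0.07 over all genes. The direction of the medians depended on scaling: with library totals they were 0.05, 0.21 and 0.21, the counts at day 14 became 34 higher and 20 lower, and those at day 21 32 and 14. Of the 19821 genes tested, 13154 were then called higher and 2212 lower at day 14, and 11047 and 1464 at day 21. Of the 37 genes called lower at day 14, 11 changed sign with library totals. Without day-21 replicate 2, 15 were higher and 17 lower at day 5, 16 and 41 at day 14, and 14 and 36 at day 21.

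Glutathione synthesis and supply held the deepest falls. At day 5 1 of its 9 genes was higher and 0 lower (1 lower with DESeq2), at day 14 2 were higher and 7 lower, and at day 21 1 was higher and 6 lower. The day-5 counts became 2 higher and 6 lower without day-21 replicate 2. With library totals 2 were higher and 6 lower at both later days. Cth, the enzyme that releases cysteine from cystathionine, fell by 2.63 ± 0.33 (log2, SE) at day 14 (adjusted p = 9.98e-05) and 1.28 ± 0.31 at day 21 (adjusted p = 0.0103). Chac2, which degrades glutathione, fell by 2.10 ± 0.28 at day 14 (adjusted p = 0.000145) and 1.04 ± 0.27 at day 21 (adjusted p = 0.0128). Chac1, its stress-induced relative, went the other way at day 5, with a rise of 2.73 ± 0.34 (adjusted p = 0.000435) from a mean of 0.323 CPM to 2.16 CPM.

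Among 16 genes of the thioredoxin system and peroxiredoxins, 3 were higher and 0 lower at day 5, 2 and 9 at day 14, and 1 and 7 at day 21. The day-5 counts became 5 higher and 2 lower without day-21 replicate 2. With library totals 8 were higher and 5 lower at day 14, and 7 and 3 at day 21, and the list's median turned from -0.51 to 0.22 and from -0.31 to 0.17. Sesn2, a stress-induced sestrin, gave 24.8, 34.1 and 29.8 CPM in control and 98.3, 89.5 and 87.9 CPM at day 5. All day-5 libraries were well above control, a rise of 1.64 ± 0.14 (adjusted p = 7.14e-05). Prdx4, the peroxiredoxin of the endoplasmic reticulum, rose by 0.69 ± 0.10 at day 5 (adjusted p = 0.000852). Sesn3 rose by 1.19 ± 0.11 at day 14 (adjusted p = 1.83e-05), and Txnrd2, the mitochondrial thioredoxin reductase, fell by 0.75 ± 0.19 at day 21 (adjusted p = 0.0114). Prdx6 fell by 0.72 ± 0.08 at day 14 and 0.45 ± 0.08 at day 21 (adjusted p = 3.92e-05 and 0.00209), falls that were absent with library totals (0.01 and 0.02).

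The glutathione peroxidases and glutaredoxins had 0 of 8 tested genes called at day 5 (1 with an unadjusted p under 0.05, 1 with DESeq2 and 0 with limma-voom), 2 higher and 5 lower at day 14, and 2 higher and 3 lower at day 21. The day-5 counts became 1 higher and 2 lower without day-21 replicate 2. With library totals 3 were higher and 2 lower at day 14, and 3 and 0 at day 21. Glrx and Glrx2, which reduce mixed disulphides, fell by 1.03 ± 0.12 and 0.78 ± 0.11 at day 14 (adjusted p = 6.03e-05 and 0.000182). Gpx7 and Gpx8, peroxidases of the endoplasmic reticulum, rose by 1.77 ± 0.36 and 0.67 ± 0.19 at day 21 (adjusted p = 0.0048 and 0.0196). The superoxide dismutase list (Sod1, Sod2 and the copper chaperone Ccs) had no call at day 5 in fits of all 12 libraries (0 with an unadjusted p under 0.05, and 0 with DESeq2 or limma-voom). When day-21 replicate 2 was left out, all 3 were called lower at day 5. All 3 were lower at both later days, or 3 and 2 with library totals. Sod1 fell by 1.67 ± 0.25 at day 14 (adjusted p = 0.000266) and 0.81 ± 0.24 at day 21 (adjusted p = 0.0229). Ccs fell by 1.41 ± 0.22 at day 14 (adjusted p = 0.000365), and Sod2, the mitochondrial enzyme, by 0.93 ± 0.28 at day 21 (adjusted p = 0.0245).

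NADPH feeds both reductases. Of the 9 genes of NADPH supply none was called at day 5 (0 with an unadjusted p under 0.05, 1 with DESeq2 and 0 with limma-voom), 2 were higher and 5 lower at day 14, and 2 were higher and 4 lower at day 21. The day-5 counts became 1 higher and 2 lower without day-21 replicate 2. With library totals 6 were higher and 2 lower at day 14, and 5 and 2 at day 21, and the list's median turned from -0.27 to 0.46 and from -0.10 to 0.34. G6pdx, which opens the pentose phosphate pathway, rose by 0.61 ± 0.12 at day 14 (adjusted p = 0.00118) and Pgd, its next NADPH-forming step, by 0.55 ± 0.11 at day 21 (adjusted p = 0.00412). Taldo1 fell by 0.53 ± 0.10 at day 14 (adjusted p = 0.000973), with the sign turned under library totals (0.20), and Nadk, the kinase that makes NADP, fell by 0.53 ± 0.10 at day 21 (adjusted p = 0.00289). In the haem and ferritin list of 5 genes, 0 were called at day 5 (1 with an unadjusted p under 0.05 and 1 each with DESeq2 and limma-voom), 4 were lower at day 14 and 2 at day 21. Day 5 had 1 higher and 1 lower without day-21 replicate 2. With library totals 2 were higher and 1 lower at day 14, and 3 and 0 at day 21. Blvra, the biliverdin reductase that acts after Hmox1, fell by 0.78 ± 0.09 and 0.51 ± 0.09 at these days (adjusted p = 7.25e-05 and 0.00282). Fth1, the ferritin heavy chain, fell by 1.25 ± 0.20 and 0.62 ± 0.20 (adjusted p = 0.000386 and 0.028).

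The NADPH oxidases, which make superoxide, were the list with the highest medians: 0.26 at day 5, 2.88 at day 14 and 1.73 at day 21. Of 6 tested genes 1 was higher at day 5, and 4 were higher and 2 lower at both later days. Day 5 had 1 higher and 1 lower without day-21 replicate 2. With library totals the day-5 call was lost, and 4 were higher and 1 lower at both later days. Among those that rose were Cybb, Ncf1 and Ncf4, subunits of the phagocyte oxidase. Not every subunit rose: Cyba was called lower at day 14, and its sign turned with library totals. Ncf1 rose by 1.07 ± 0.30, 3.38 ± 0.30 and 2.65 ± 0.30 at the 3 days (adjusted p = 0.0345, 1.57e-05 and 0.000359), Cybb by 3.11 ± 0.29 at day 14 (adjusted p = 1.93e-05) and Ncf4 by 2.20 ± 0.33 at day 21 (adjusted p = 0.00123). Nox4, the main oxidase of the renal tubule, had a change of -0.51 ± 0.27 at day 5 (adjusted p = 0.245) and was among the 2 lower later. Macrophage and monocyte markers also rose, from 86.8 to 115 CPM in control to 963 to 997 CPM at day 14 and 274 to 562 CPM at day 21. Their part in the changes of the subunits was not tested.

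**Figure D5:**
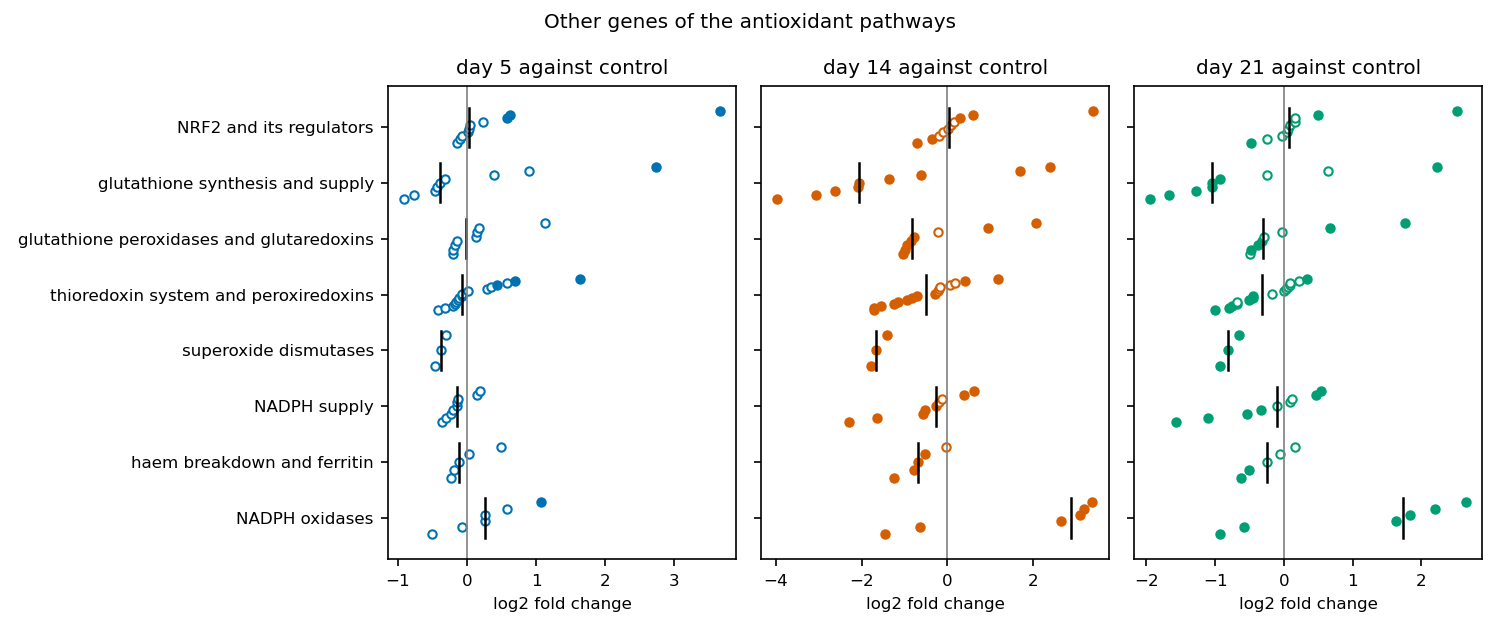
Log2 fold change of the 66 other tested pathway genes (horizontal axis) by list, for day 5, day 14 and day 21 against control, with a vertical bar at each list's median and filled points where the adjusted p was under 0.05. With the TMM scaling plotted, most lists lay left of 0 at day 14 and day 21, while the NADPH oxidase list had medians of 2.88 and 1.73.

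Courses like those of the members that rose and fell most at day 14 were looked for among 13647 genes. Likeness was the root mean square difference of log2 CPM, relative to the control mean, over the 9 toxin libraries, with a smaller value for a closer course. Closest to Srxn1 were Ddhd1 at 0.0861, Sptlc2 at 0.112 and Sall1 at 0.116. Closest to Cat were Mthfd1 at 0.102, Echdc3 at 0.110 and Iyd at 0.118. All genes are compared over the same 9 libraries, which differ in cell markers and depth, and the measure is a description.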

How the data were processed

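Poly(A) RNA of whole kidney was sequenced in 12 libraries, and the authors deposited 1 table of raw read counts per gene with identifiers, symbols, positions on GRCm39 and the gene length in bases, another deposited value, used only for levels per kb. Per the submitters' processing notes, fastp 0.20.0 and featureCounts were used. For the aligner, annotation release, strand setting and treatment of multi-mapping reads, the sources used here give nothing. Rows without a symbol (2803, 2.14% of counts) were tested and not named. Library totals ran from 31023852 to 46420299 counts, and the lowest count of a member in a library was 656. Between libraries of the same group, chi-square per degree of freedom was 4.79 or more, above counting error.

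In R 4.3.3, edgeR 4.0.16 filtered genes with filterByExpr (19821 kept), scaled them by TMM and fitted a quasi-likelihood model to all 12 libraries, 1 mean per group. P-values were adjusted by Benjamini-Hochberg over all genes tested within each of 6 comparisons, and called at an adjusted p under 0.05. SE is the absolute log2 change over the square root of F. CPM uses TMM-scaled totals. Ratios of members add 0.5 to each count. The fit was tested on counts simulated from the means and spread of the control libraries. That simulation held no outlying library and few changed genes. It therefore says nothing about the fit with day-21 replicate 2 or with the broad change at day 14. No libraries were identical. Alternatives were 4 other scalings, DESeq2 1.42.0, limma-voom (limma 3.58.1), other filters, a fit of only the groups compared, a replicate block and the omission of each library.

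The members and lists were chosen with earlier results of these data known. Named genes were all members, Nfe2l2, Keap1 and Bach1, the 2 genes of each list with the smallest adjusted p in each comparison with control, and the 3 closest courses for the members that rose and fell most at day 14. Not all are printed, and 1 listed gene is not reported here. Marker lists not described in the results were also measured: endothelial markers summed to 206 to 222 CPM in control and 140 to 146 CPM at day 14; smooth muscle, pericyte and fibroblast markers to 159 to 239 and 1018 to 1041 CPM; loop, distal tubule and collecting duct markers to 5731 to 6127 and 2541 to 2789 CPM; adrenal and fat markers to 61.2 to 145 and 38.2 to 204 CPM; and neutrophil markers to 0.331 to 0.474 and 4.72 to 5.77 CPM. Promoter windows are from RefSeq on GRCm38.p6 and were matched by symbol, with no coordinate carried between builds. No entry was used for Hmox1, Gclc, Gsr and Sod3.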

Additional observations from a re-analysis of the deposited data

Results flagged for a closer look

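The changes of a member at 2 days, both taken against the same controls, differed by a direct test between the days in 17 cases (edgeR's quasi-likelihood test, adjusted p under 0.05). The values below are log2 differences between days.

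Day 14 was below day 5 for 9 members, where 26.1% of all genes were called lower. The enzymes of peroxide and superoxide removal differed by -2.0 (Gpx3), -1.59 (Cat) and -1.02 (Sod3). The subunits of glutamate-cysteine ligase differed by -1.86 (Gclc) and -0.86 (Gclm). The haem and quinone enzymes differed by -1.23 (Hmox1) and -0.86 (Nqo1), and the reductases by -1.25 (Gsr) and -0.81 (Txnrd1). In all of these the 3 day-14 libraries lay below the 3 day-5 libraries with TMM. With library totals the differences were smaller, and those of Gclm (-0.28) and Nqo1 (-0.27) were not called, at adjusted p = 0.183 and 0.195. The day-14 and day-5 libraries of Gclm and Nqo1 then overlapped.

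Day 21 was above day 14 for Nqo1 (1.32), Gclc (0.97) and Gsr (0.60), again without overlap of the libraries. Against day 5, day 21 was lower for Gpx3 (-0.98), Gclc (-0.89), Gsr (-0.65), Sod3 (-0.63) and Txnrd1 (-0.46). Day-21 replicate 2 was the highest of its group for each of these 5, and without it the differences were -1.51, -1.19, -0.78, -1.002 and -0.64.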

How the results depend on the processing

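Gene results and counts were recomputed under 22 other settings, the joint test under 21, and the ratios and the counts by list under 7 each. The counts of members called at day 14 against control (8 to 9) and between day 5 and day 14 (7 to 10) stayed within 1.5 times the value reported in every setting, as did the joint test (9 to 10). Leaving out 1 library at a time gave 2 to 6 members at day 5, 4 to 8 at day 21, 2 to 7 between day 14 and day 21, and 1 to 7 between day 5 and day 21, and 4 to 32 other pathway genes at day 5 and 17 to 50 at day 21. A fit of only the groups compared gave 7 members at day 5 (4 higher and 3 lower) and 1 at day 21. It gave 1 between day 14 and day 21 and 0 between day 5 and day 21. Of other pathway genes it called 39 at day 5 and 6 at day 21. DESeq2 gave 7 members between day 14 and day 21, 8 between day 5 and day 21, and 14 other pathway genes at day 5. Over all genes the calls ran from 1570 to 6982 at day 5 (2945 as reported), 1631 to 12738 at day 21 (8490), 263 to 4949 between day 14 and day 21 (2893) and 506 to 11506 between day 5 and day 21 (5325).

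Signs turned for some values, and not all of them were near 0. With library totals Txnrd1 at day 14 turned from -0.30 and Gsr at day 21 from -0.20. Both were then called higher in edgeR's test (adjusted p = 0.00132 and 0.026). The median log2 change of all genes moved up by 0.73 and 0.48 at these days. With library totals, and with totals without mitochondrial genes, Txnrd1 at day 14 was 0.43 and 0.19, Gsr at day 21 was 0.26 and 0.12, Srxn1 at day 14 against day 5 was 0.35 and 0.18, Srxn1 at day 21 against day 5 was 0.12 and 0.030, and Gclm at day 21 against day 14 was -0.13 and -0.016. Srxn1 at day 21 against day 14 was 0.011 in a fit of only those groups, and -0.10 to 0.076 when 1 library was left out. When 1 library was left out, Txnrd1 at day 21 ran from -0.12 to 0.15, Nqo1 at day 21 from -0.078 to 0.26 and Gclm at day 21 against day 14 from -0.26 to 0.40. The log2 ratio of Nqo1 to Cat at day 5 ran from -0.032 to 0.20, and that of Sod3 to Gpx3 at day 21 from -0.16 to 0.057. The cause was not tested.

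Replicate numbers are shared by the groups, but same-numbered libraries did not deviate together: of 18 such pairs 4 had a correlation over 0.1 (range -0.14 to 0.17), and 4 of 12 libraries were closest to their own number. With the replicate block, 4, 8 and 7 members were called at day 5, day 14 and day 21, 9, 3 and 5 between days, and 8, 52 and 39 other pathway genes. Depth was not limiting for the members, the lowest count being 656, while Slc7a11 and Chac1 lay near or below 1 CPM in control.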
